A study of Mus musculus with 12 samples.

Results

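The cytosolic chaperonin, also called CCT or TRiC, is a double-ring folding machine whose subunits are encoded by the genes Tcp1, Cct2, Cct3, Cct4, Cct5, Cct6a, Cct7 and Cct8. These 8 genes, of the 18193 that the array's annotation names singly, were followed across kidney RNA and a reference RNA amplified from falling inputs. They were found by gene symbol in the probe annotation and had 25 of the 45101 probe sets. Their NCBI gene IDs are 21454 for Tcp1, 12461 for Cct2, 12462 for Cct3, 12464 for Cct4, 12465 for Cct5, 12466 for Cct6a, 12468 for Cct7 and 12469 for Cct8. A probe set is a group of short probes read as 1 signal. Of the 25, 24 passed the filter on low signal, and all 8 genes kept at least 1. The remaining probe set, 1436973_at of Cct8, had every group mean below the background signal of 33.7.

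The series was described as a comparison of ways to amplify nanogram amounts of total RNA before array hybridisation. It held 12 mouse arrays in 4 groups of 3. One group was kidney total RNA from the supplier Ambion at an input of 10 ng, and 3 groups were Universal Mouse Reference RNA at inputs of 10, 3 and 0.3 ng, credited to Strategene in the labels. Such reference RNA is a commercial pool made from cultured cell lines, so it has no matching tissue. The labels gave no strain, age, sex or treatment for the kidney, did not say how the code pRS differed from other methods, and did not say whether replicates were separate amplifications. The p-values therefore measure only the spread between these arrays, which may be technical. The number of arrays limits the precision.

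As background, the chaperonin is built as a pair of stacked rings, each holding every subunit type once, and it closes around unfolded proteins as ATP is hydrolysed. Actin and tubulin are its best known clients, and others include cell cycle activators and proteins with WD40 repeats such as G protein beta subunits. Prefoldin hands unfolded clients to it, and phosducin-like proteins act as its cofactors. Because the complex needs all of its subunits, the design allows 2 questions: whether the subunits differed between the RNAs in the same direction and by the same amount, and whether falling input changed them alike.

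Array signals had a 2% trimmed mean of 500 when averaged over the 12 arrays, and array medians ran from 47.5 to 78.3. Correlations between arrays of a group ran from 0.827 to 0.863 at 0.3 ng, and from 0.942 to 0.965 in the other groups. The tissue label was checked against markers. All 7 kidney tubule markers were higher in kidney by limma, with a summed signal of 49342 to 50591 per array against 170 to 218 in the reference at 10 ng. All 5 tested markers of dividing cells were lower in kidney, at a summed 562 to 768 against 15336 to 15710, and their part in the results below was not tested. Endothelial markers were higher in kidney for 3 of 3, macrophage markers for 2 of 3 with 1 lower, and the 1 tested podocyte marker was higher. Whether a lower signal came from fewer cells of a type or from less RNA per cell cannot be told apart in bulk RNA.

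All 8 subunits were lower in kidney than in the reference RNA at the same 10 ng input. By the brightest probe set of each gene the fall ran from 1.42-fold for Cct4 to 2.45-fold for Cct8. The median log2 difference was -0.96. For each subunit no kidney array overlapped a reference array of that input. Differences were tested by limma on log2(signal + 3.9), a scale that understates change at low signals, with Benjamini-Hochberg adjustment over 27022 probe sets and a threshold of 0.05. Over all tested probe sets 37.2% were called lower and 22.9% higher, the median log2 difference was -0.34, and 43.1% lay lower in kidney with no overlap of arrays. Against that background 8 of 8 were lower and 0 of 8 higher. Centring arrays on their medians moved the split of all calls from 10045 lower and 6201 higher to 7805 and 7540, the median of all tested to -0.09, and the median of the 8 to -0.72.

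**Figure D1:**
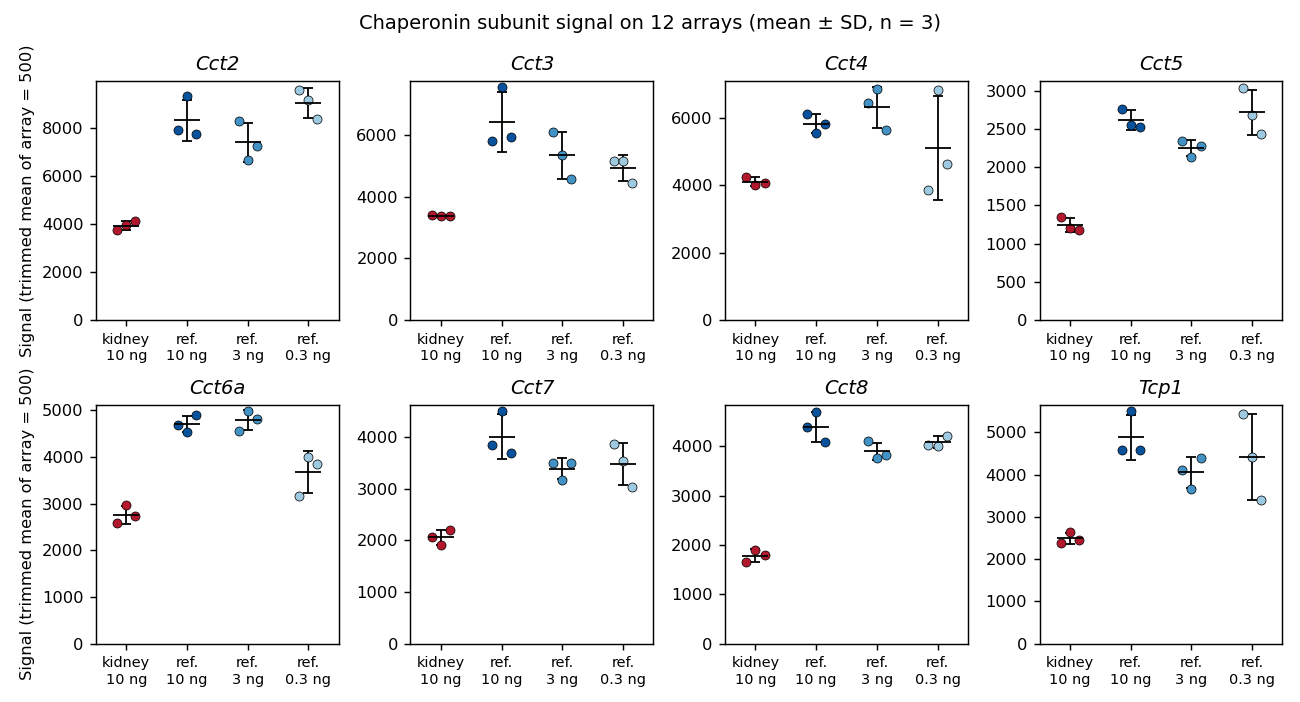
Signal of the brightest probe set of each subunit on every array, on a linear scale, with groups along the horizontal axis, points for arrays, long bars for group means and whiskers for the SD (n = 3). The 3 kidney arrays lie below the 3 reference arrays at 10 ng for each of the 8 subunits, and only for Cct4 does a reference array, at 0.3 ng, fall below the kidney arrays.

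Among subunits on the side of the ring known for tight ATP binding, Cct2 had signals of 3760, 3946 and 4111 in the kidney arrays and 7932, 9324 and 7756 in the reference at 10 ng. The kidney values lay close together and every reference value was well above them. The log2 difference was -1.08 ± 0.133 (SE, n = 3 arrays per group, limma adjusted p = 0.00115), a 2.11-fold lower signal. Cct5 gave 1342, 1198 and 1174 in kidney against 2763, 2549 and 2525, again with separate groups, and a log2 difference of -1.08 ± 0.125 (limma adjusted p = 0.000901). Inherited changes in Cct5 are known to cause a sensory neuropathy, and in Cct2 a retinal disease.

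Cct4, also on that side of the ring, differed least by its brightest probe set. Its kidney signals were 4258, 4009 and 4058 and its reference signals 6109, 5563 and 5834, so the groups were still separate at this input. The log2 difference was -0.51 ± 0.116, with a 95% interval from -0.79 to -0.22 (limma adjusted p = 0.0120). This call was lost when arrays were centred on their medians (-0.26, adjusted p = 0.116), with no filter on low signals (adjusted p = 0.0561) and when all 12 arrays shared 1 fit (adjusted p = 0.0816). Over its alternatives the adjusted p ran from 0.00450 to 0.116. Other Cct4 probe sets with a mean signal above 1000 differed more, with log2 differences of -0.68 for 1433447_x_at and -0.96 for 1415867_at. Its dimmer ones went in both directions.

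Tcp1, the founding member of the family, gave 2381, 2639 and 2451 in kidney and 4574, 5498 and 4574 in the reference. The 3 kidney arrays stayed below the lowest reference array, and the log2 difference was -0.97 ± 0.137 (limma adjusted p = 0.00194).

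Of the subunits on the weaker ATP-binding side, Cct8 differed most. Its kidney signals were 1654, 1907 and 1802 and its reference signals 4403, 4690 and 4087, with a gap between the groups wider than either group's range. The log2 difference was -1.30 ± 0.129 (limma adjusted p = 0.000512). Cct3 gave 3410, 3358 and 3370 in kidney, the tightest of the 8, against 5790, 7537 and 5944, and -0.92 ± 0.149 on the log2 scale (limma adjusted p = 0.00327). Cct7 gave 2068, 1912 and 2204 against 3836, 4496 and 3690, with a log2 difference of -0.95 ± 0.140 (limma adjusted p = 0.00222). Cct6a, whose mammalian relative Cct6b is known from testis, gave 2583, 2968 and 2736 against 4672, 4537 and 4891. Its groups were separate too, at -0.77 ± 0.122 (limma adjusted p = 0.00304).

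The promoters of genes that differed together can be set side by side. RefSeq start-site windows of GRCm38.p6, from 250 bases before to 50 after each gene's start, covered 7 of the 8 genes in 9 windows on 7 chromosomes; Cct4 was not matched. The 4 windows printed were picked because Cct8 differed most, Cct7 holds the most CCAAT boxes, and Cct5 and Cct2 hold the motifs found in the fewest windows among those with a match. They read 5′ to 3′ on the strand of the gene, in lower case, and capitals mark matches to the motifs searched on both strands.
Cct8, chr16:87495820-87496119, minus strand: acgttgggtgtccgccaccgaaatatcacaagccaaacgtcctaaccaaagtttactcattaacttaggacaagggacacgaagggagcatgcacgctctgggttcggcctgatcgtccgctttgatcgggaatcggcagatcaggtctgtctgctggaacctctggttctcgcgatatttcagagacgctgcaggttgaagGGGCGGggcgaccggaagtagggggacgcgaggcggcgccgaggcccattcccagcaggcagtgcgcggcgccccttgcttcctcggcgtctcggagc
Cct7, chr6:85451255-85451554, plus strand: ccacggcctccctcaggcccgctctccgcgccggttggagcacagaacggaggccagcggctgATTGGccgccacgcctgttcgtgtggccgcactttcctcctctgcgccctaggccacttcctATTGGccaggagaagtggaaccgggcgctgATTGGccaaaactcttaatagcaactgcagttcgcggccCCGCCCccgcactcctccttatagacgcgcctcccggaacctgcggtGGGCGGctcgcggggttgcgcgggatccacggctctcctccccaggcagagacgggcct
Cct5, first window, chr15:31601797-31602096, minus strand: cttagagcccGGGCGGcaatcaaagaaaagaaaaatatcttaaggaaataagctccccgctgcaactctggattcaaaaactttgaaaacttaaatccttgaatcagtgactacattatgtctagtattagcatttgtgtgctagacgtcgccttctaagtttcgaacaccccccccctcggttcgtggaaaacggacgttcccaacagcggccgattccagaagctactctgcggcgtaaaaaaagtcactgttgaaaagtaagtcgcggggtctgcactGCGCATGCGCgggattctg
Cct2, second window, chr10:117063326-117063625, minus strand: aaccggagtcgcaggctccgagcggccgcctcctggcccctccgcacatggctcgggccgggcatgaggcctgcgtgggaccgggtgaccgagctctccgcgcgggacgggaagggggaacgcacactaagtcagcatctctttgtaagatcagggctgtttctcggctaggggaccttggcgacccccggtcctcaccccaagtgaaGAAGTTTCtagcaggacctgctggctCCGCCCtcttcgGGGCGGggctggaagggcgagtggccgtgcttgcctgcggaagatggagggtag

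The GC box, letters GGGCGG, lay in 8 of the 9 windows and in all 7 genes, against 35.7% of the 32851 windows in the table. The CCAAT box, letters CCAAT, lay in the windows of Cct3, Cct6a, Cct7 and Tcp1, with 3 copies in Cct7, and in 37.4% of all windows. The TATA box, letters TATAAA, lay in 0 of 9 against 13.6%, and the E box, letters CACGTG, in 0 of 9 against 7.15%. The heat shock element core, letters GAANNTTC, was in the second window of Cct2 only, among 7.86% of all windows. The NRF1 core, letters GCATGCGC, was in the first window of Cct5 on both strands, as overlapping matches, among 2.71%. A match describes letters and is not shown to be a bound site. The share of G and C in the 9 windows ran from 47.3% in the first of Cct5 to 67.7% in Cct7. The median over all windows was 52.7%, and the part of this share in the motif counts was not tested.

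Whether subunits moved by the same amount was tested by subtracting the mean log2 signal of the 8 from every probe set on each array and refitting. On that scale Cct4 lay above the mean change, at 0.44 ± 0.130 with a 95% interval from 0.12 to 0.76 (limma adjusted p = 0.0279). Cct8 lay below it, at -0.35 ± 0.118 with an interval from -0.64 to -0.06 (limma adjusted p = 0.0429). The other 6 subunits were not called and ran from -0.13 to 0.18, with Cct6a, at 0.18, bounded between -0.15 and 0.50. Of all tested probe sets 62.7% were called against this mean, beside 2 of 8 members. The share and the count do not compare like with like, since the 8 members make up the mean that was subtracted. The 2 calls were not robust: 0 remained with no filter or with all 12 arrays in 1 fit. Leaving out 1 array at a time left 0 or 1, the 1 without reference 10 ng replicate 1. With the second brightest probe sets 0 of 7 were called against the mean of those 7. Cct8 could not be tested there, since its second probe set did not pass the filter, and Cct5 and Tcp1 kept their only probe set.

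**Figure D2:**
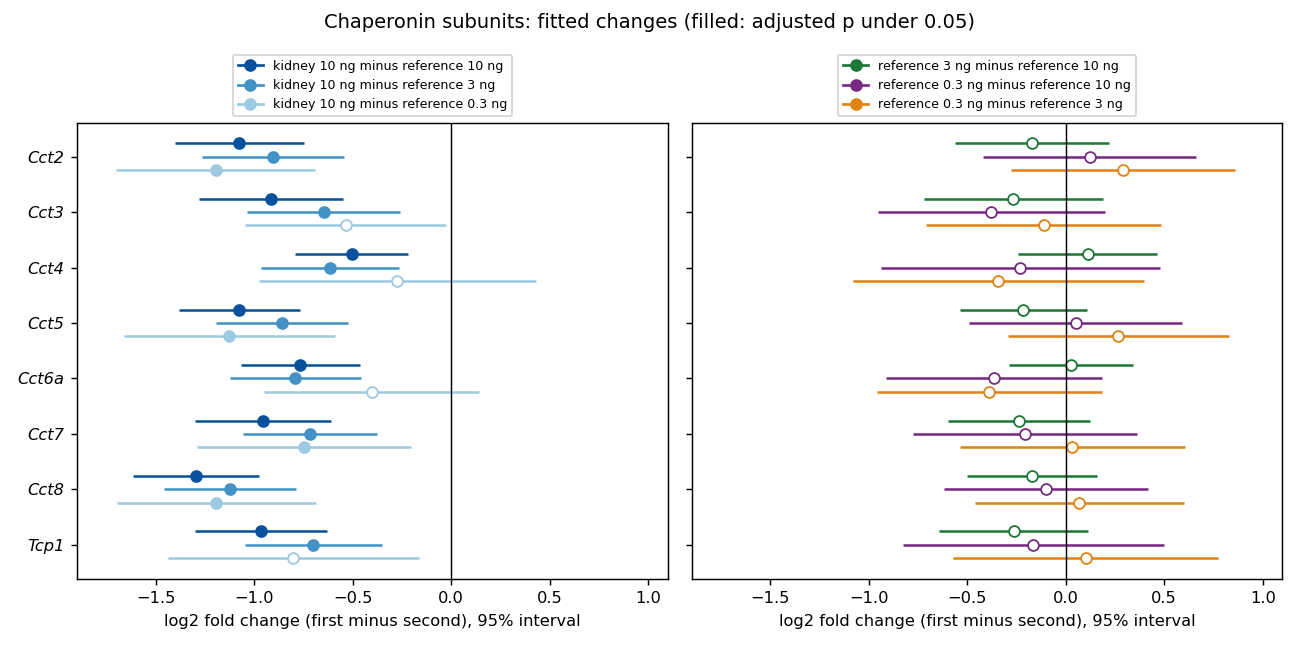
Log2 differences of each subunit in the comparisons, kidney against each reference input on the left and reference inputs on the right, with bars for 95% intervals and filled points for adjusted p under 0.05. In kidney against the reference at 10 ng the 8 points run from -1.30 for Cct8 to -0.51 for Cct4, while points between reference inputs lie nearer to 0.

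The spread of the 8 log2 differences had an SD of 0.23 and an interquartile range of 0.20. Over all 27022 tested probe sets the SD was 1.98 and the interquartile range 1.79, from -1.24 to 0.55. These spreads do not compare like with like, since the 8 are bright and the tested set includes dim probe sets. Probe sets of the same genes with a mean signal below 1000 ran from -1.86 to 1.53, and those above it from -1.30 to -0.51. Array by array, each of the kidney arrays stood 0.93 to 0.96 below the reference mean in log2 units when averaged over the 8. By the brightest probe sets Cct8 was lowest and Cct4 highest on each of the 3.

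**Figure D3:**
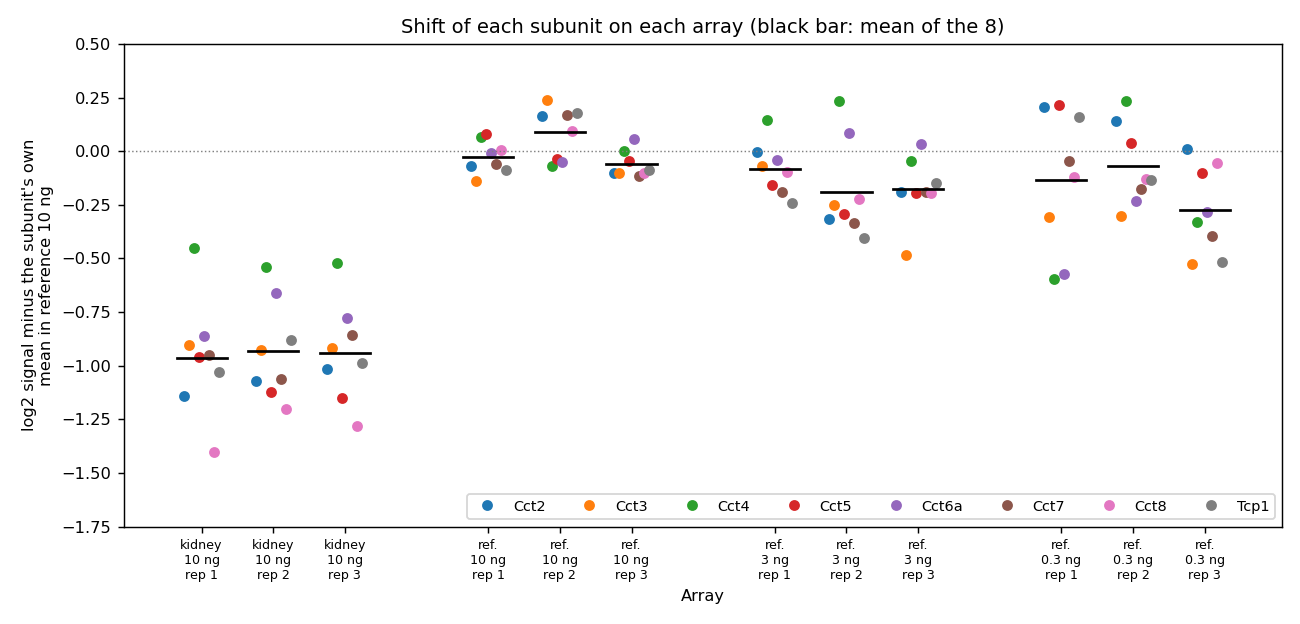
Log2 difference of each subunit from its own mean over the reference arrays at 10 ng, for every array, with a mark for the mean of the 8. The 3 kidney arrays cluster at means of -0.96, -0.93 and -0.94, and the reference arrays at 0.3 ng are spread more widely around means of -0.13, -0.07 and -0.27.

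Several subunits had more than 1 probe set, which gives a check within a gene. Of 24 tested, 20 were called lower in kidney at 10 ng, 0 higher and 4 not called. Over all tested probe sets 37.2% were called lower and 22.9% higher. Of the 24, the 16 with a mean signal above 1000 were all called lower, between -1.30 and -0.51. The 8 dimmer ones ran from -1.86 to 1.53 with 4 called lower. Cct4 varied most among its probe sets: 1438560_x_at gave -0.51, 1433447_x_at -0.68 and 1415867_at -0.96, and against the mean of the 8 the last 2 were at 0.26 (limma adjusted p = 0.0972) and -0.01 (limma adjusted p = 0.939). Its dim probe set 1456082_x_at, at 1.53 ± 0.815, was not called, but against the mean of the 8 it was, at 2.47 (limma adjusted p = 0.0370). Also called against that mean was the dim 1430034_at of Cct4, at 1.12 (limma adjusted p = 0.0185). So were the dim Cct3 probe sets 1439679_at, at -0.92 (limma adjusted p = 0.0224), and 1449645_s_at, at -0.91 (limma adjusted p = 0.0107). The remaining dim probe sets were not called against it, where 62.7% of all tested probe sets were. Cct2 probe sets gave -1.08, -1.29 and -0.93, the second of which lay below the mean of the 8 at -0.35 (limma adjusted p = 0.0444).

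**Figure D4:**
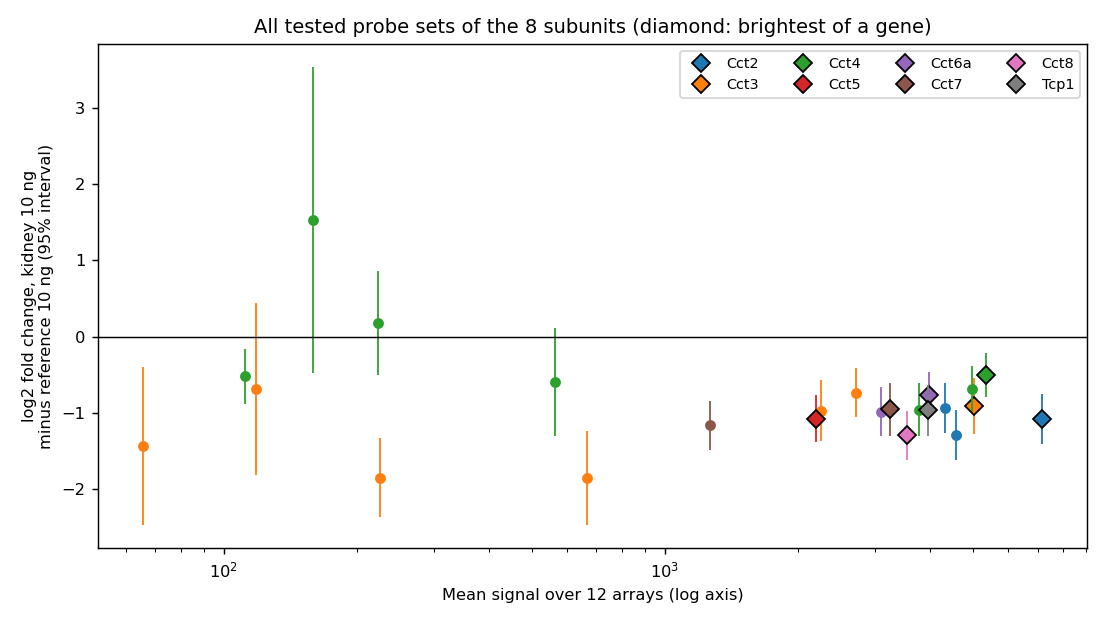
Log2 difference between kidney and reference at 10 ng for each tested probe set of the 8 genes, against its mean signal over all arrays on a log axis, with bars for 95% intervals and diamonds for the brightest probe set of a gene. Probe sets above a signal of 1000 sit between -1.30 and -0.51, and the dimmer ones spread from -1.86 to 1.53.

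The comparison was repeated against the lower reference inputs, which use the same kidney arrays. Here RNA source and input change together and cannot be told apart. Against 3 ng all 8 subunits were lower, from -1.12 for Cct8 to -0.62 for Cct4, with limma adjusted p from 0.00122 to 0.0159, where 34.9% of tested probe sets were lower. With no filter on low signals 6 of the 8 were called, without Cct3 (adjusted p = 0.0547, from 0.00918 to 0.222 over its alternatives) and Cct4 (adjusted p = 0.0522, from 0.00964 to 0.203). With arrays centred on their medians 4 of the 8 were called, and the split over all probe sets moved from 9422 lower and 5886 higher to 6546 and 7550. Against 0.3 ng 4 were lower and 0 higher, with 16.7% of all tested lower. Those 4 were Cct2 at -1.20 ± 0.205, Cct5 at -1.13 ± 0.217, Cct8 at -1.19 ± 0.204 and Cct7 at -0.75 ± 0.220. Cct3 (-0.54), Cct4 (-0.27), Cct6a (-0.40) and Tcp1 (-0.80) were not called. The Cct7 call was lost in 7 of its 14 alternatives, among them leaving out any kidney array, reference 0.3 ng replicate 1 or reference 0.3 ng replicate 2, and its adjusted p ran from 0.00427 to 0.165. Without kidney replicate 2, or without kidney replicate 3, Cct5 was not called either, which left 2 of the 8. Cct2, Cct3, Cct5, Cct6a, Cct7, Cct8 and Tcp1 had every kidney array below all 9 reference arrays, as 22.3% of all tested probe sets did.

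Cct4 was the exception by its brightest probe set. Its highest kidney signal there was 4258 and its lowest reference signal 3860, at 0.3 ng replicate 1. The Cct4 probe sets 1433447_x_at and 1415867_at had every kidney array below all 9 reference arrays, as 22.3% of all tested probe sets did. At 0.3 ng the brightest Cct4 probe set gave 3860, 6849 and 4631, and its SD of log2 signal was 0.42. Cct8 was the steadiest at that input, with signals of 4034, 4010 and 4220 and an SD of 0.04. Over the 8 the median SD at 0.3 ng was 0.17, and over all tested probe sets 0.69. The 2 values do not compare like with like, since the 8 are bright and the tested set starts at a signal of 65.4. Dimmer probe sets of the same genes reached an SD of 1.75 (1415868_at of Cct4), 2.54 (1439679_at of Cct3) and 3.40 (1430034_at of Cct4) at that input.

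In group means kidney was lowest for each of the 8, and no subunit had a called difference between neighbouring reference inputs. Cct2 gave 8283, 6663 and 7279 at 3 ng and 9599, 9174 and 8365 at 0.3 ng. Cct8 gave 4104, 3761 and 3834 at 3 ng, and Cct3 gave 6087, 5352 and 4563 at 3 ng and 5147, 5166 and 4433 at 0.3 ng. Of these, Cct3 had its lowest arrays at the lower inputs, while Cct2 had its highest at 0.3 ng.

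Falling input did not give a called difference for any subunit. Between 3 and 10 ng limma called 0 of 8 and 0% of all probe sets (unadjusted p under 0.05 for 0 of 8 and for 2736 of 27022), and the subunits ran from -0.27 for Cct3 to 0.11 for Cct4. Between 0.3 and 10 ng limma again called 0 of 8 (unadjusted 0 of 8), against 0.796% of all, with differences from -0.38 for Cct3 to 0.12 for Cct2. Between 0.3 and 3 ng limma called 0 of 8 (unadjusted 0 of 8), against 0.241% of all, from -0.39 for Cct6a to 0.29 for Cct2. Against the mean of the 8, which the members themselves make up, 0 of 8 were called between 0.3 and 10 ng, against 0.503% of all. The intervals were wide: at 0.3 ng against 10 ng the lowest limit was -0.96, for Cct3, and the highest 0.66, for Cct2. The widest interval, for Cct4, reached 0.71 to each side of its estimate. Each subunit's interval included 0, so none of these differences could be told from 0 with these arrays. The median of the 8 between 0.3 and 10 ng was -0.19, and 0.25 with arrays centred on their medians, so its direction depends on the scaling. Over the 9 reference arrays each subunit was correlated with the mean of the other 7. Pearson r was -0.06 for Cct4, -0.03 for Cct6a, 0.18 for Cct5 and 0.22 for Cct2. It was 0.58 for Tcp1, 0.60 for Cct8, 0.82 for Cct3 and 0.85 for Cct7. These values mix differences between inputs with the spread between replicate arrays.

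Cct6a at 0.3 ng gave 3162, 3993 and 3856, each below its 4672, 4537 and 4891 at 10 ng, although the difference of -0.36 ± 0.223 was not called (limma adjusted p = 0.491). Tcp1 at 0.3 ng gave 5428, 4425 and 3401, from below the range at 10 ng to within it.

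The 3′/5′ signal ratio of the control gene Actb was 5.37 ± 0.126 (SD, n = 3) in kidney and 3.75 ± 0.170 in the reference at 10 ng, while that of Gapdh was 1.13 in both. Its part in the differences was not tested.

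Genes that work with the complex were called in both directions in kidney against reference at 10 ng. Every count and median of the lists below is to be read beside the 37.2% of all tested probe sets called lower, the 22.9% called higher and their median of -0.34, and no list was tested against them. Of 6 prefoldin genes, which deliver clients, 1 was lower, 1 higher and 4 not called, with a median of -0.13. Pfdn4 fell, at 476 ± 55.9 against 1256 ± 178 (SD, n = 3, limma adjusted p = 0.00106), and Pfdn1 rose, at 3447 ± 156 against 2298 ± 223 (limma adjusted p = 0.0111). Among phosducin-like cofactors 2 of 3 tested fell: Pdcl3 at 355 ± 17.4 against 754 ± 71.0, and Txndc9 at 2720 ± 132 against 3920 ± 175. Of the sequence relatives of the subunits 1 of 3 tested fell, Bbs12, from 588 ± 47.3 to 215 ± 76.1, and Cct6b, at 36.0 ± 11.5 in kidney, did not pass the filter on low signal. The mitochondrial chaperonin pair had 1 called: Hspe1 fell, at -0.52, and Hspd1 was not called at 0.08. Cct6b and Hspd1 were also named after their values were seen.

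Actin and tubulin are the clients best known for needing the complex. Of 10 actin and tubulin genes 6 were lower, 1 higher and 3 not called, with a median of -0.53, where 37.2% of all tested probe sets were lower and 22.9% higher. Tubb6 fell most, from 2020 ± 332 to 87.8 ± 53.8, with Tuba1a at -1.57, Tubg1 at -1.44 and Tubb5 at -1.07. Tuba4a rose by 0.91, and Actb and Actg1 were not called, both at -0.19; these 3 genes were picked after their values were seen. Of 11 other clients 8 were lower and 0 higher, with a median of -0.71. Cdc20, an activator of cell division, gave -5.26, Gnb2 -1.23 and Wrap53 -1.08, and the kinase gene Plk1 was at least 5.55-fold lower, as it lay below background in kidney.

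Tubulin cofactors had 2 of 5 lower, Tbce at -1.67 and Tbca at -0.45, with 3 not called, a share lower that is near the 37.2% of all tested probe sets. The Hsp70 and Hsp90 systems, chaperones that share clients with the complex, had 1 lower, 4 higher and 12 not called of 17, with a median of -0.07. Hspa1b rose from 2144 ± 102 to 6497 ± 162 and Hspa1a from 33.3 ± 27.7, near background, to 297 ± 173. Bag1 rose by 0.95 and Stip1 fell by 1.29. Hsf2, a heat shock factor, was not called at 0.69 (limma adjusted p = 0.227). Between reference inputs limma called 0 of 77 listed genes, cell markers included. That is near the shares of all tested probe sets called. These were 0% between 3 and 10 ng, 0.796% between 0.3 and 10 ng and 0.241% between 0.3 and 3 ng.

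**Figure D5:**
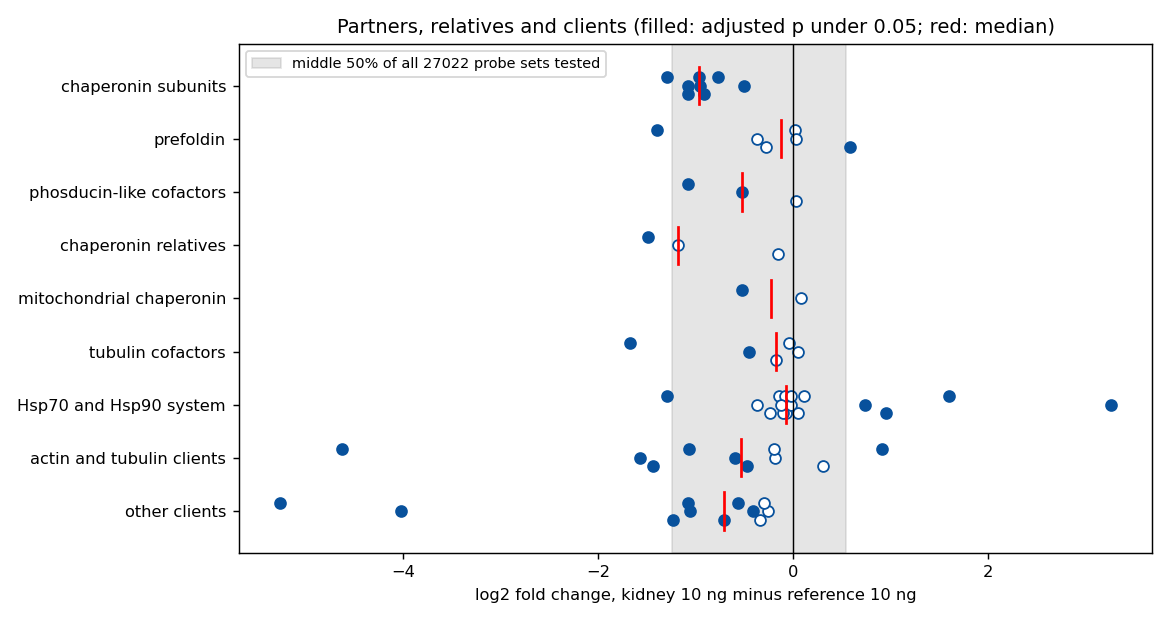
Log2 difference between kidney and reference at 10 ng for every tested gene of the lists, with each list on its own line, its median in red, called genes filled, and the middle 50% of all tested probe sets in grey; Plk1, below background in kidney, is drawn at its fitted value. The chaperonin subunits lie between -1.30 and -0.51, while the Hsp70 and Hsp90 line runs from -1.29 to 3.26.

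Of 12812 genes with a tested probe set, those whose log2 pattern over the 12 arrays was most like the mean of the 8 subunits were Tpm2, Sbsn, Tm4sf1, Cyb5r1 and Col5a2, with Pearson r from 0.988 to 0.993. The 12 arrays form a kidney and a reference cluster, so these r values rest on the difference between them. Tpm2, a tropomyosin gene, gave 1346 ± 52.0 in kidney and 4486 ± 363 in the reference at 10 ng.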

How the data were processed

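RNA of 12 mouse samples was measured on arrays of 45101 probe sets, per the deposited table. The deposited intensities are linear. The 2% trimmed mean, averaged over the 12 arrays, came to 500 when recomputed. How the authors summarised probes, and with which software, is not given in the sources used here. Groups and replicate numbers came from the sample titles. Values were used as deposited. Log2 was taken after adding 3.9, the 10th percentile of positive values. The 64 control probe sets were left out. A probe set was tested when its highest group mean on the log2 scale exceeded the 40th percentile (a signal of 65.4), which kept 27022. Background, 33.7, was the 95th percentile of 27 Bacillus controls.

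Each comparison was fitted with limma 3.58.1 in R 4.3.3 on the 3 arrays of each group, two-sided, with Benjamini-Hochberg adjustment. The fit takes equal variance in both groups. A gene was represented by its brightest probe set naming it alone. The scripts were tested on simulated data. Named genes were all 8 members, up to 4 called genes with the largest change from each list (the 2 brightest where none was called), and the 5 genes most correlated with the mean of the members. Actb, Actg1, Tuba4a, Hspd1 and Cct6b fall outside this rule and were named after their values were seen. Members and lists were chosen with earlier results of these data known. Alternatives are given in the closing section.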

Additional observations from a re-analysis of the deposited data

How the results depend on the processing

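Kidney against reference 10 ng kept 8 of 8 subunits lower when any 1 array was left out, with a median from -1.01 to -0.87, the last without reference 10 ng replicate 2. Centring arrays on their medians moved this median to -0.72 and quantile normalization to -1.05; the split of all calls moved from 10045 lower and 6201 higher to 7805 and 7540 under centring, and the median of all tested from -0.34 to -0.09. The count of subunits off the mean of the 8 was 0 with no filter, with all 12 arrays in 1 fit and with the replicate block. It was 0 to 1 when 1 array was left out. With the second brightest probe sets 0 of 7 lay off the mean of those 7, without Cct8, whose second probe set was not tested. Against 3 ng no filter left 6 lower, and centring left 4 lower and a median of -0.41. Quantile normalization gave a median of -0.84, and the second brightest probe sets -0.81 over 7 subunits. Against 0.3 ng centring gave a median of -0.96, the replicate block left 0 lower (adjusted p from 0.0538 for Cct8 to 0.146 for Cct7 among the 4 called without it), and leaving out 1 array gave 2 to 5 lower (2 without kidney replicate 2 or 3) and medians from -0.91 to -0.66. Between 3 and 10 ng centring gave -0.29. Between 0.3 and 10 ng it gave 0.25 in place of -0.19, and between 0.3 and 3 ng 0.58 in place of 0.05, or from -0.054 to 0.086 when 1 array was left out. The cause was not tested. Same-numbered arrays did not deviate together (correlations of -0.06 to 0.02), so the numbers do not pair the arrays. Signal limits the dimmer probe sets, and the 0.3 ng arrays vary more than the fit's equal variance assumes.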
